A study of Homo sapiens with 12 samples.

Results

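The genes described here lie in the first 10 Mb of the short arm of chromosome 16 (GRCh38), most of them in band 16p13.3. They were chosen by measured values: 59 genes of the stretch were listed because it stood higher in cells lacking the CTCF-binding site called CTCF-A. Of these, 58 were in the deposited table of 11178 genes, and all 58 passed the filter on low values that left 11128 genes. SPSB3 was not analysed here. The values that chose the genes were those of CTCF-A KO against wild type, so that comparison is given as a description. Counts of members past the threshold in it follow from the choice and support nothing. The working description "higher in CTCF-A KO" held for 55 of the 58. PMM2, CARHSP1 and USP7, which lie apart from the others at the inner end of the stretch, did not show it.

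The study measured mRNA by RNA sequencing in U251-APP cells, derived from the human glioblastoma line U251 by stable expression of mutant APP, the amyloid precursor protein. There were 3 groups of 4 libraries: CTCF-A KO, in which Cas9 and a pair of flanking guide RNAs removed the site CTCF-A, CTCF-B KO, in which the site CTCF-B was removed in the same way, and wild type, which is U251-APP with both sites in place. All 3 groups carry the mutant transgene, and the labels give CRISPR/Cas9 editing as the treatment of the wild-type cells too. The knockout cells were grown from single-cell clones, while the labels neither say that the wild-type cells were cloned nor give the coordinates of the sites. Whether replicates were separate clones or cultures is not stated. A p-value here thus refers only to the spread among the 4 libraries within each group, pooled over the 3 groups. That spread may be technical.

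CTCF is a zinc-finger protein that holds chromatin loops together and separates neighbouring regulatory domains. The tip of 16p is gene-dense and rich in G and C. Among its genes are subunits and regulators of mTORC1, the kinase complex that couples nutrient supply to growth, and many genes for mitochondria, lysosomes, protein turnover and the ribosome. TSC2, PKD1 and CREBBP, also there, are genes of inherited disease.

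The promoters of 4 members are shown, picked for responses described below or, for IL32, for its sequence. METRN was far higher in CTCF-A KO and lower in CTCF-B KO, GNPTG was higher in CTCF-A KO, IL32 has few CpG dinucleotides, and USP7 was lower in CTCF-A KO. Each sequence runs from 250 bases before to 50 bases after the RefSeq start (GRCh38.p14), written 5′ to 3′ on the strand of the gene, at chr16:714868-715167 on the plus strand for METRN, chr16:1351681-1351980 on the plus strand for GNPTG, chr16:3065153-3065452 on the plus strand for IL32, and chr16:8963857-8964156 on the minus strand for USP7. Capitals mark the GC box GGGCGG or its reverse complement CCGCCC, the letters bound by SP1-type factors.
METRN: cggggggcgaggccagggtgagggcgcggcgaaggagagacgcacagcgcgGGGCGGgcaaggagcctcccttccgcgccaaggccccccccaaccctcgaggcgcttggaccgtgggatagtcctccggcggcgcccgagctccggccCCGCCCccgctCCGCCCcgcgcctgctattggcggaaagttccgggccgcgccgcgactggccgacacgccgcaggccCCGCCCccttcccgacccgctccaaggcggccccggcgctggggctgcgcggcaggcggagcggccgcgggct
GNPTG: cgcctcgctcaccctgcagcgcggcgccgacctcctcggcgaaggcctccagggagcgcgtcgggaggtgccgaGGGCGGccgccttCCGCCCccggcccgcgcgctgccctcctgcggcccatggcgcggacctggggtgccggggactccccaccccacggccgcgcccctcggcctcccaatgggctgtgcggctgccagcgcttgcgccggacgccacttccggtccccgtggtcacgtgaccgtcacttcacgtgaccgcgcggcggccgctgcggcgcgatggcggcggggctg
IL32: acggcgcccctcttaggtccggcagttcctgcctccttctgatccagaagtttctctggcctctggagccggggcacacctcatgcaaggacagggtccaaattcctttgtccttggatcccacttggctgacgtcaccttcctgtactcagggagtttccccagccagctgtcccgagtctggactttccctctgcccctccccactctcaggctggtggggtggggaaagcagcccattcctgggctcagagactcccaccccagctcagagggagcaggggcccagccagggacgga
USP7: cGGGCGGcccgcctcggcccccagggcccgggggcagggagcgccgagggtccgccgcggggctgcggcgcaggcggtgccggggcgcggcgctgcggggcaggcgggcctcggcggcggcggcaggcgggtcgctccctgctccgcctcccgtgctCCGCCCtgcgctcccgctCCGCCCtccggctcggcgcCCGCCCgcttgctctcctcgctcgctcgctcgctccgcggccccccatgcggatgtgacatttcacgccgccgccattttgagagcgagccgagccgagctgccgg

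RefSeq promoters were matched for 51 of the 58 members. RPS2, NUBP2, TNFRSF12A, WDR24, MLST8, STUB1 and DECR2 were not among them. GGGCGG was found on either strand in 41 of the 51 (80.4%), against 44.9% of 34943 promoters of the same length. The METRN and USP7 windows each held 4 such matches, the GNPTG window held 2 and the IL32 window 0. Whether the number of boxes goes with the difference was not tested. An NRF1-like motif, GCGC followed by any base and TGCGC, was in 15.7% of the members' promoters and in 5.74% of all. CCGGAAG, an ETS-like site, was in 29.4% of the members' promoters and in 10.2% of all. The motifs were searched on both strands, and the promoter windows were GC-rich, with a median GC content of 73% for the members and 58.7% for all promoters. The CTCF core motif matched in 0 of the 51 windows and in 0.398% of all, which says only that these letters were not found there. A match describes the letters and not a bound site.

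Most members stood about 1.5-fold higher in CTCF-A KO, with like values through the first 5 Mb of the chromosome. The median difference over the 58 was 0.55 on the log2 scale, a fold of 1.47, with quartiles at 0.41 and 0.64 and the extremes at -0.44 and 1.83. Past the threshold used for all genes (limma, adjusted p under 0.05) were 55 members higher and 1 lower, a count that the choice of the genes fixes. Over all 11128 genes 31.8% were called higher and 31.1% lower, and the median was 0.00. In 54 members all 4 CTCF-A KO libraries lay above all 4 wild-type libraries, a pattern that 25.7% of all genes showed. In 1 member, USP7, they all lay below, which 22.1% of all genes showed, and in HMOX2, PMM2 and CARHSP1 the groups overlapped. In CTCF-B KO the same genes had a median difference from wild type of 0.03, between -0.85 and 0.36. Set against CTCF-B KO, CTCF-A KO had a median difference of 0.53 over the members, with 53 called higher and 2 lower, where 33.4% and 32.6% of all genes were. With the trend with GC content and transcript length removed, as described below, that median was 0.26, with 43 called higher and 8 lower, where 33.0% and 35.6% of all genes were. Both forms share the CTCF-A KO libraries with the comparison that chose the genes.

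**Figure D1:**
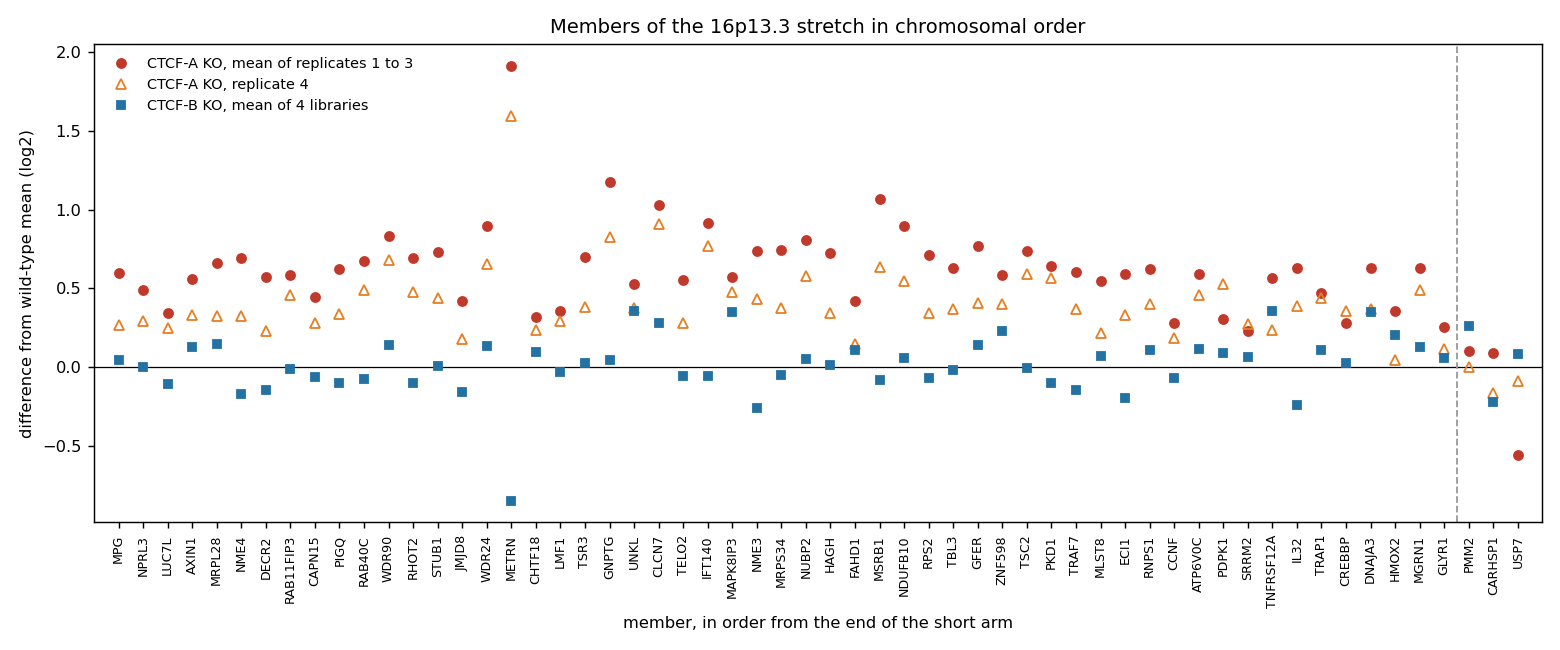
Difference from the wild-type mean (log2, vertical axis) of each of the 58 members in order from the end of the short arm (horizontal axis). Red circles are the mean of CTCF-A KO replicates 1 to 3, open triangles CTCF-A KO replicate 4, and blue squares the mean of 4 CTCF-B KO libraries. Both CTCF-A KO series lie above 0 for each of the 55 members left of the dashed line, which marks a stretch with no measured gene, and not for USP7 at the right end. METRN stands apart, at 1.83 over all 4 CTCF-A KO libraries and -0.85 in CTCF-B KO.

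Replicate 4 of CTCF-A KO differed from the other 3 libraries of its group in its trend with GC content. The genes in the highest quintile of GC content lay above those in the lowest quintile by 0.93, 0.46 and 0.65 in replicates 1, 2 and 3 of CTCF-A KO, and by 0.08 in replicate 4. The same quantity lay between -0.09 and 0.03 in CTCF-B KO and between -0.12 and 0.08 in wild type. The members were GC-rich: their transcripts had a median GC content of 62.0%, against 49.1% over all genes, and 40 of the 58 were in the highest quintile of all genes, which begins at 58.5%. Genes of that quintile outside the stretch had medians of 0.33, 0.17, 0.23 and 0.04 in CTCF-A KO replicates 1 to 4.

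The members also stood higher in replicate 4. It is 1 of the 4 CTCF-A KO libraries that chose the genes, so its values are no separate support. Their median difference from the wild-type mean was 0.69, 0.52, 0.58 and 0.37 in CTCF-A KO replicates 1 to 4, against 0.02 to 0.04 in the CTCF-B KO libraries and -0.03 to 0.02 in the wild-type libraries. In replicate 4 alone, 54 members lay above all 4 wild-type libraries, where 36.4% of all genes did. Replicate 1 gave a larger difference than replicate 4 in 54 members. With the trend of each library with GC content and transcript length removed, the 4 CTCF-A KO medians came to 0.37, 0.37, 0.36 and 0.32, and their SD over the 4 libraries to 0.0227, against 0.132 with the trend in place. The CTCF-B KO medians were then 0.07 to 0.09 and the wild-type medians -0.01 to 0.02. With the trend removed the median over the members was 0.35 in CTCF-A KO, a fold of 1.28, with 52 past the threshold as higher and 2 as lower, where 31.7% and 30.1% of all genes were. This count too follows from the choice. CHTF18, LMF1 and HMOX2 no longer passed, and CARHSP1 came to -0.12 and PMM2 to -0.09. Across the 58 members, replicate 4 and the mean of replicates 1 to 3 had a Pearson r of 0.88 and a Spearman rho of 0.78, both set against the same wild-type mean. GC content and the CTCF-A KO difference had an r of 0.49 and a rho of 0.40 across members, and 0.39 and 0.31 with the trend removed. The wild-type level and the difference had an r of -0.03.

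**Figure D2:**
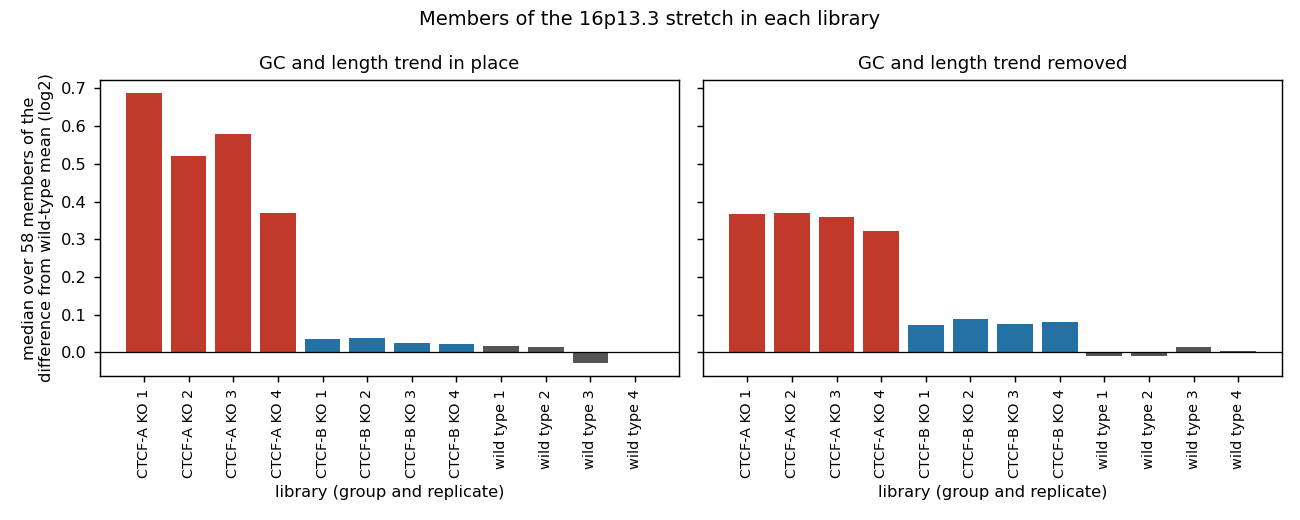
Median over the 58 members of the difference from the wild-type mean (log2, vertical axis) in each of the 12 libraries (horizontal axis), as deposited on the left and with the trend with GC content and transcript length removed on the right. Bars are single medians with no error. In place, the CTCF-A KO bars run from 0.37 in replicate 4 to 0.69 in replicate 1. With the trend removed they run from 0.32 to 0.37, above the CTCF-B KO bars at 0.07 to 0.09.

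Along the chromosome, the higher level ran through the first 5 to 6 Mb, and the 3 members beyond a gap in the measured genes lay lower. Counting members and non-members, the medians of the 1 Mb bins from the tip inward were 0.55, 0.62, 0.56, 0.43, 0.56 and 0.62 in CTCF-A KO, and 0.33 to 0.49 in its replicate 4. No measured gene lay between the end of EEF2KMT at 5097808 and the start of METTL22 at 8621683, a distance of 3.52 Mb. The 5 genes between 8 and 9 Mb had a median of 0.05, and the 1 gene beyond, C16orf72, was at -0.27, and at 0.20 with the trend removed. The 55 members of the first 6 Mb lay between 0.22 and 1.83, with a median of 0.56. The 3 members beyond the gap were at 0.08 for PMM2, 0.03 for CARHSP1 and -0.44 for USP7. The 3 measured genes nearest inside the 10 Mb border were CARHSP1, USP7 and C16orf72, and the 3 nearest outside it were EMP2 at 0.38, NUBP1 at 0.36 and CLEC16A at 0.13. The other 75 tested genes of the first 10 Mb, which are not on the list, had a median of 0.54 and lay between -0.29 and 1.17.

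The rest of chromosome 16 did not share the level. The next 3 windows of 10 Mb had medians of -0.01, 0.15 and 0.17 in CTCF-A KO. Those of the long arm from 40 Mb onward lay between -0.57, in a last window of 2 genes, and -0.09. From 80 to 90 Mb, 54 of 58 genes were called lower, where 31.1% of all genes were, with a median of -0.52, and of -0.66 with the trend removed. Among 279 windows of 10 Mb with at least 10 genes over the genome, the tip of 16p ranked 1 in CTCF-A KO and the next window had a median of 0.44. With the trend removed it ranked 3, at 0.36, and the highest window was at 0.42. In CTCF-B KO it ranked 117. The window was chosen for its level, so its rank describes the choice.

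**Figure D3:**
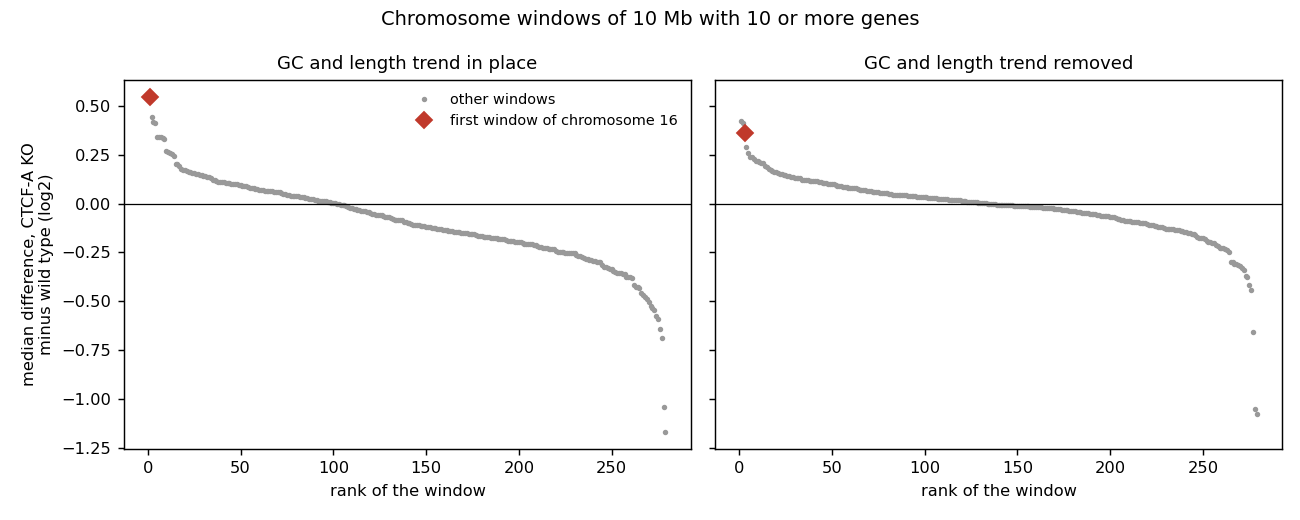
Median difference of CTCF-A KO from wild type (log2, vertical axis) in 279 chromosome windows of 10 Mb with at least 10 genes, ordered by rank (horizontal axis). Each grey point is a window with no error shown, and the red diamond is the first window of chromosome 16. It ranks 1 at 0.55 with the trend with GC content and length in place, on the left, and 3 at 0.36 with it removed, on the right.

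Genes of lysosomes, the secretory pathway and glycosylation held the pair with the largest differences after METRN. The 7 members of this group lay between 0.08 and 1.08 in CTCF-A KO minus wild type, with a median of 0.55. GNPTG encodes the gamma subunit of the phosphotransferase that starts the mannose 6-phosphate tag on lysosomal enzymes (chr16:1351923-1364113, plus strand). It was at 10.53, 10.30, 10.41 and 10.06 in CTCF-A KO replicates 1 to 4, at 9.26, 9.29, 9.26 and 9.33 in CTCF-B KO, and at 9.33, 9.31, 9.10 and 9.22 in wild type (log2 normalized value). CTCF-A KO was apart from both other groups, replicate 4 included, by 1.08 over wild type, a fold of 2.12. With the trend removed the difference of GNPTG was 0.88. Differences and folds of single genes here and below are with the trend in place unless stated. UNKL, on the opposite strand, overlaps the 3′ end of GNPTG, and without a stated strand setting the reads of the pair cannot be told apart there.

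CLCN7 encodes the chloride-proton exchanger of lysosomes (chr16:1444934-1475580, minus strand). It was at 11.31, 11.10, 11.23 and 11.10 in CTCF-A KO, at 10.46, 10.49, 10.49 and 10.44 in CTCF-B KO, and at 10.23, 10.20, 10.17 and 10.14 in wild type. The 3 groups did not overlap, and CTCF-A KO was 2.00-fold above wild type. Its replicate 4 differed from the wild-type mean by 0.91, close to the 1.00 of the whole group. The other members of the group above wild type were ATP6V0C, a membrane subunit of the proton pump of lysosomes, at 0.56, PIGQ, an enzyme of the first step of GPI anchor synthesis, at 0.55, JMJD8, a protein of the endoplasmic reticulum, at 0.36, and LMF1, a maturation factor of lipases, at 0.34.

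PMM2, the phosphomannomutase that feeds N-glycosylation, was at 8.55, 8.53, 8.51 and 8.43 in CTCF-A KO, at 8.70, 8.71, 8.67 and 8.66 in CTCF-B KO, and at 8.47, 8.41, 8.44 and 8.40 in wild type. Its CTCF-A KO libraries overlapped wild type, and its CTCF-B KO libraries lay above both.

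**Figure D4:**
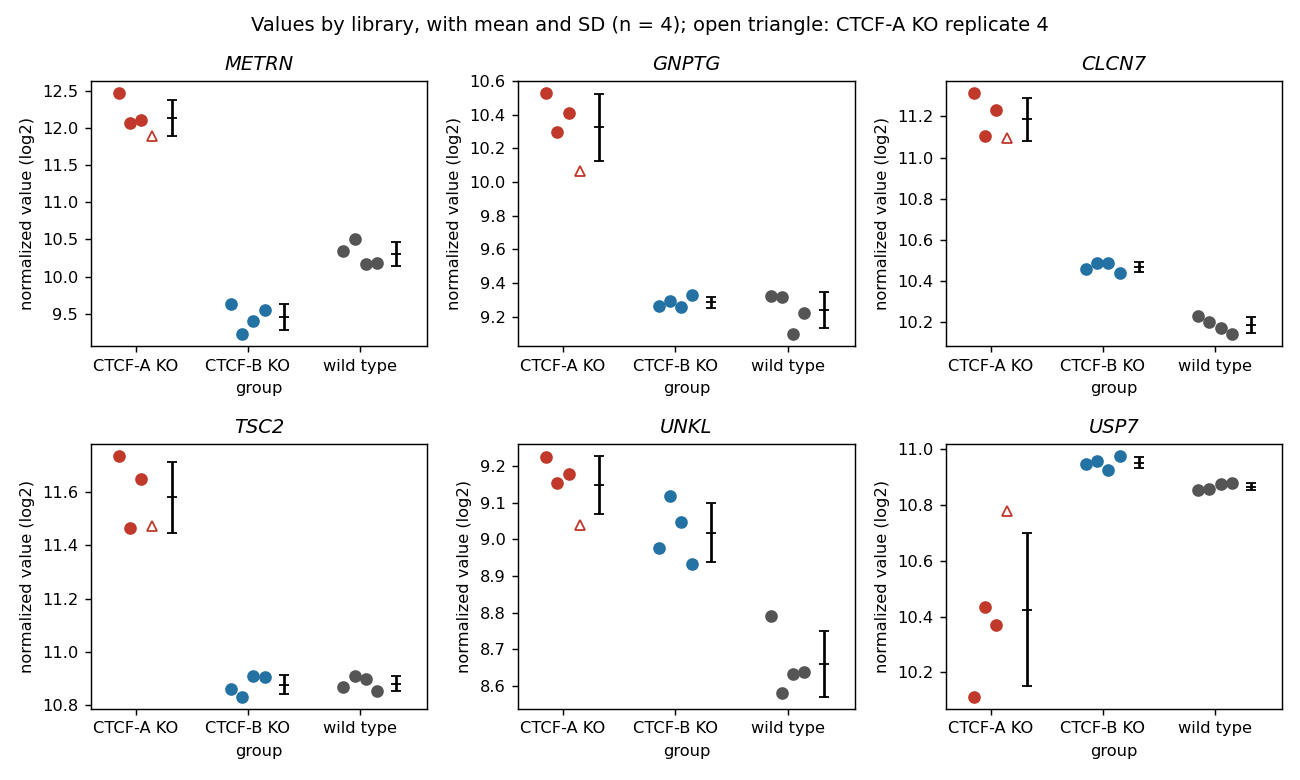
Deposited normalized value (log2, vertical axes, each with its own range and not starting at 0) of 6 members in each library of CTCF-A KO, CTCF-B KO and wild type (horizontal axes). Points are libraries, the open triangle is CTCF-A KO replicate 4, and the black mark beside each group is the mean with its SD (n = 4). METRN, GNPTG, CLCN7 and TSC2 are highest in all 4 CTCF-A KO libraries, UNKL is above wild type in both knockouts, and USP7 is lowest in CTCF-A KO, where the libraries spread from 10.11 to 10.78.

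The group of cilia, transport, receptors and secreted factors held METRN, whose values differed most from wild type in each of the knockouts. Its 9 members lay between 0.48 and 1.83 in CTCF-A KO minus wild type, with a median of 0.57. METRN encodes meteorin, a secreted factor known in mouse for glial differentiation and axon outgrowth (chr16:715115-719655, plus strand). It was at 12.47, 12.06, 12.11 and 11.89 in CTCF-A KO, at 9.63, 9.23, 9.41 and 9.55 in CTCF-B KO, and at 10.35, 10.51, 10.17 and 10.18 in wild type. The groups did not overlap: CTCF-A KO lay above wild type, by 1.83 or 3.56-fold, and CTCF-B KO lay below it. In the contrast that the choice of genes did not use, METRN fell by 0.85 ± 0.12 in CTCF-B KO (log2, SE, n = 4, limma adjusted p 1.14e-04).

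IFT140, a subunit of the transport complex that returns cargo from the tip of the cilium, was at 9.62, 9.34, 9.48 and 9.34 in CTCF-A KO, at 8.60, 8.44, 8.49 and 8.52 in CTCF-B KO, and at 8.59, 8.55, 8.56 and 8.57 in wild type. It stood 1.84-fold higher in CTCF-A KO, where all libraries were above the other groups. MAPK8IP3 encodes a scaffold that links JNK kinases to axonal transport. Its values were 10.33, 10.17, 10.25 and 10.15 in the CTCF-A KO libraries, 10.04, 9.99, 9.99 and 10.09 in CTCF-B KO, and 9.74, 9.70, 9.67 and 9.60 in wild type, so that both knockouts lay wholly above wild type. Against CTCF-B KO, MAPK8IP3 in CTCF-A KO was at 0.20, and at -0.16 with the trend removed. TNFRSF12A, the receptor of the cytokine TWEAK, was at 13.62, 13.50, 13.52 and 13.22 in CTCF-A KO, at 13.38, 13.38, 13.35 and 13.26 in CTCF-B KO, and at 12.99, 12.99, 12.95 and 13.01 in wild type. Here too both knockouts lay above wild type, and they overlapped each other.

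The further members of the group were WDR90, a centriolar protein, at 0.79, PKD1, polycystin-1, at 0.62 (0.20 with the trend removed), IL32, a cytokine gene, at 0.57, RAB11FIP3, an effector of recycling endosomes, at 0.55, and AXIN1, a scaffold of the complex that degrades beta-catenin, at 0.50. Against CTCF-B KO, PKD1 in CTCF-A KO was at 0.72, and at -0.09 with the trend removed. It has near-identical pseudogene copies on 16p, and its reads may be split among them. IL32, whose promoter is shown above without a GC box, was at 7.31, 7.32, 7.13 and 7.01 in CTCF-A KO, at 6.47, 6.38, 6.25 and 6.44 in CTCF-B KO, and at 6.69, 6.57, 6.56 and 6.68 in wild type, and the groups did not overlap.

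**Figure D5:**
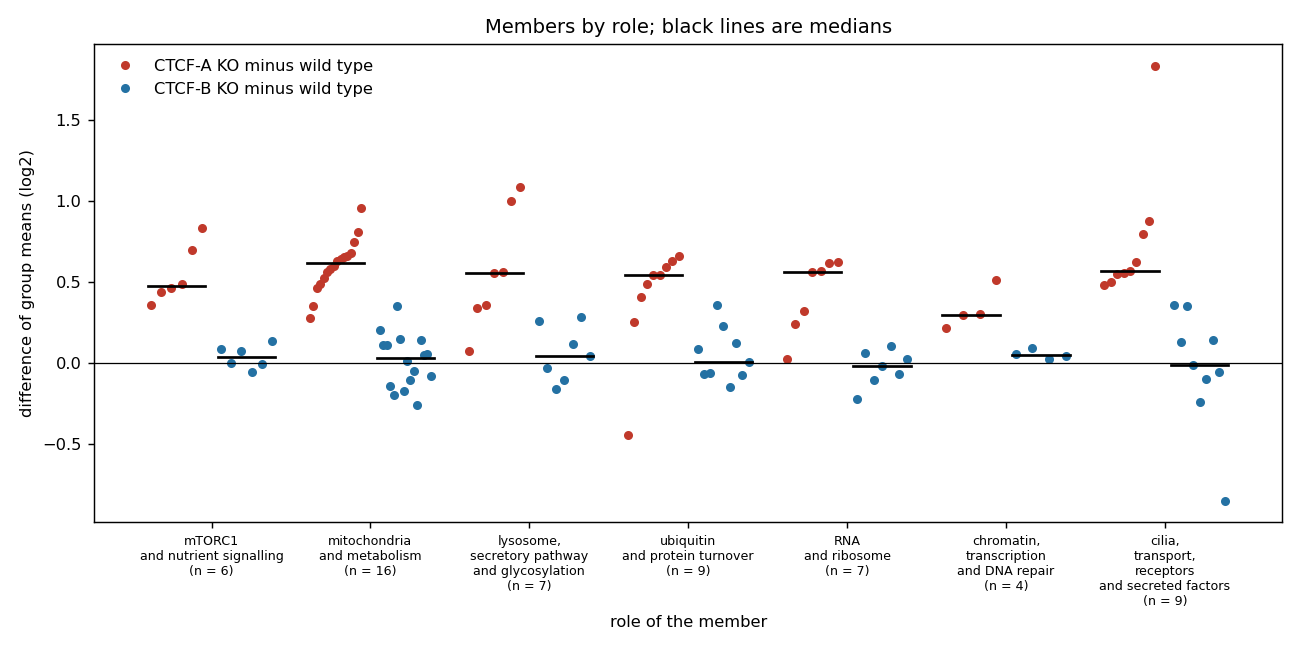
Difference of group means from wild type (log2, vertical axis) of the 58 members by role (horizontal axis, with the number of members). Red points on the left of each pair are CTCF-A KO minus wild type, blue points on the right CTCF-B KO minus wild type, and black lines are medians. The CTCF-A KO medians lie between 0.30 for chromatin, transcription and DNA repair and 0.61 for mitochondria and metabolism, and the CTCF-B KO medians between -0.02 and 0.05.

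The 6 mTORC1 and nutrient signalling members lay between 0.36 and 0.84 above wild type in CTCF-A KO, with a median of 0.47. They act in opposite directions on mTORC1: TSC2 and NPRL3 restrain it, while WDR24, MLST8, TELO2 and PDPK1 belong to its activators, core or assembly factors. WDR24, a subunit of GATOR2, was at 8.95, 8.74, 8.76 and 8.58 in CTCF-A KO, at 7.98, 8.17, 8.03 and 8.05 in CTCF-B KO, and at 8.05, 7.97, 7.77 and 7.89 in wild type. TSC2, the GTPase-activating subunit that switches off RHEB (chr16:2047465-2089487, plus strand), was at 11.73, 11.47, 11.65 and 11.47 in CTCF-A KO, at 10.86, 10.83, 10.91 and 10.90 in CTCF-B KO, and at 10.87, 10.91, 10.90 and 10.85 in wild type. Both were higher in every CTCF-A KO library, by 1.78-fold for WDR24 and 1.62-fold for TSC2, and the other 2 groups overlapped. TSC2 overlaps NTHL1 and PKD1 on the opposite strand.

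PDPK1, the kinase that activates AKT and S6 kinase, was the smallest of the group at 0.36. Its values were 10.27, 10.22, 10.39 and 10.52 in the CTCF-A KO libraries, 10.03, 10.06, 10.12 and 10.10 in CTCF-B KO, and 9.96, 10.08, 10.02 and 9.91 in wild type. Here replicate 4 was the highest CTCF-A KO library, unlike in most members. PDPK1 has a near-identical copy on 16p, so its reads may be split. MLST8, a core subunit of the mTOR complexes, was at 0.46, TELO2, an assembly factor of mTOR-type kinases, at 0.48, and NPRL3, a subunit of GATOR1, at 0.44.

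Pathway genes outside the stretch moved both ways in CTCF-A KO, as did genes over the whole table. Of 40 measured mTORC1 pathway genes elsewhere in the genome, 15 were called higher and 13 lower in the CTCF-A KO comparison, with a median of -0.03, and 10 higher and 8 lower in CTCF-B KO, with a median of 0.05. Over all genes 31.8% were called higher and 31.1% lower in CTCF-A KO, and 18.9% and 20.6% in CTCF-B KO. Among the larger changes in CTCF-A KO were RRAGD, a GTPase that recruits mTORC1 to lysosomes, at 1.14 ± 0.05, SESN2, a leucine sensor induced by stress, at 0.75 ± 0.08, and LAMTOR2, a lysosomal anchor, at 0.69 ± 0.09 (log2, SE, n = 4). In CTCF-B KO the largest were SESN2 at 1.54 ± 0.08, EIF4EBP1, a translation repressor under mTORC1, at 0.84 ± 0.07, EIF4EBP2 at -0.44 ± 0.03 and LAMTOR2 at -0.41 ± 0.09.

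Binding partners and close relatives of the members, encoded elsewhere, were also mixed, as were all genes. Of 48 measured, 21 were called higher and 14 lower in the CTCF-A KO comparison, with a median of 0.13. In CTCF-B KO 10 were called higher and 6 lower, with a median of 0.06. The shares over all genes were 31.8% and 31.1% in CTCF-A KO, and 18.9% and 20.6% in CTCF-B KO. HMOX1, the inducible relative of HMOX2, was at 2.01 ± 0.10 in CTCF-A KO, PMM1, the relative of PMM2, at 0.59 ± 0.06, HSP90AA1, the cytosolic relative of TRAP1, at -0.68 ± 0.19, and WDR35, which works with IFT140, at -0.81 ± 0.17 (log2, SE, n = 4). In CTCF-B KO the largest were HMOX1 at 0.53 ± 0.10, PIGH, a partner of PIGQ, at 0.40 ± 0.05, DEPDC5, which with NPRL3 forms GATOR1, at -0.34 ± 0.07, and GIGYF2, a partner of ZNF598, at -0.32 ± 0.06.

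The 16 mitochondrial and metabolic members lay between 0.28 and 0.96 above wild type in CTCF-A KO, with a median of 0.61, and of 0.42 with the trend removed. MSRB1, a selenoprotein that repairs oxidised methionine, was at 10.62, 10.41, 10.52 and 10.08 in CTCF-A KO, at 9.36, 9.30, 9.42 and 9.39 in CTCF-B KO, and at 9.45, 9.46, 9.45 and 9.44 in wild type, a fold of 1.94 in CTCF-A KO. NDUFB10, a subunit of respiratory complex I, was at 11.86, 11.75, 11.72 and 11.43 in CTCF-A KO, at 10.94, 10.94, 10.95 and 10.90 in CTCF-B KO, and at 10.85, 10.91, 10.85 and 10.90 in wild type, a fold of 1.75. For both genes the CTCF-A KO libraries were apart from all others, with replicate 4 the lowest of them.

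DNAJA3, a mitochondrial co-chaperone, was at 11.33, 11.27, 11.27 and 11.03 in CTCF-A KO, at 11.02, 11.10, 10.99 and 10.94 in CTCF-B KO, and at 10.69, 10.63, 10.62 and 10.71 in wild type. Both knockouts lay above wild type. HMOX2, the constitutive heme oxygenase, had the smallest difference of the group, 0.28. It was at 10.28, 10.27, 10.24 and 9.96 in CTCF-A KO, at 10.12, 10.18, 10.07 and 10.07 in CTCF-B KO, and at 9.96, 9.92, 9.84 and 9.92 in wild type, and its replicate 4 of CTCF-A KO lay within the range of wild type.

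The other 12 ran from 0.35 to 0.75. They included NUBP2, an assembly factor of cytosolic iron-sulfur proteins, at 0.75, GFER, a sulfhydryl oxidase of the intermembrane space, at 0.68, NME3 and NME4, nucleoside diphosphate kinases, at 0.66 and 0.60, MRPS34 and MRPL28, proteins of the mitochondrial ribosome, at 0.65 and 0.58, RHOT2, a GTPase of mitochondrial transport, at 0.64, and HAGH, a glyoxalase, at 0.63. ECI1 and DECR2, enzymes of fatty acid oxidation, were at 0.53 and 0.49, TRAP1, the mitochondrial HSP90, at 0.47, and FAHD1, an oxaloacetate decarboxylase, at 0.35.

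In the group of ubiquitin and protein turnover the 9 members lay between -0.44 and 0.66 in CTCF-A KO minus wild type, with a median of 0.54. STUB1, the ubiquitin ligase CHIP that handles misfolded chaperone clients, was at 11.89, 11.67, 11.78 and 11.48 in CTCF-A KO, at 11.08, 11.07, 11.06 and 11.01 in CTCF-B KO, and at 11.06, 11.05, 11.03 and 11.04 in wild type. RAB40C, a GTPase with a ubiquitin ligase adaptor box, was at 9.50, 9.18, 9.37 and 9.16 in CTCF-A KO, at 8.59, 8.62, 8.60 and 8.59 in CTCF-B KO, and at 8.74, 8.70, 8.57 and 8.69 in wild type. For both, CTCF-A KO lay above the rest, by 1.58-fold and 1.55-fold over wild type, and CTCF-B KO overlapped wild type. UNKL, a zinc-finger protein, was at 9.22, 9.15, 9.18 and 9.04 in CTCF-A KO, at 8.98, 9.12, 9.05 and 8.93 in CTCF-B KO, and at 8.79, 8.58, 8.63 and 8.64 in wild type. Both knockouts lay above wild type and overlapped each other. Against CTCF-B KO, UNKL in CTCF-A KO was at 0.13, and at -0.11 with the trend removed.

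USP7, a deubiquitinase known for stabilising MDM2 (chr16:8892094-8964514, minus strand), was the only member with a negative difference in CTCF-A KO. The gene was at 10.11, 10.44, 10.37 and 10.78 in CTCF-A KO, at 10.95, 10.96, 10.93 and 10.98 in CTCF-B KO, and at 10.85, 10.86, 10.87 and 10.88 in wild type. All 4 CTCF-A KO libraries lay below wild type, with replicate 4 nearest to it, 0.09 under the wild-type mean. Its transcript was poorest in GC of all members, at 45.7%, and its difference of -0.44 was -0.24 with the trend removed. The remaining members of the group were MGRN1, a ubiquitin ligase, at 0.59, TRAF7 at 0.54, ZNF598, a ligase that senses collided ribosomes, at 0.54, CAPN15, a calpain, at 0.41, and CCNF, the F-box protein cyclin F, at 0.25.

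In the group of RNA and ribosome the 7 members lay between 0.03 and 0.62 in CTCF-A KO minus wild type, with a median of 0.56. TSR3 modifies ribosomal RNA of the small subunit, and its start lies back to back with that of GNPTG on the other strand, TSR3 ending at 1351911 and GNPTG beginning at 1351923. TSR3 was at 11.07, 10.95, 10.92 and 10.66 in CTCF-A KO, at 10.43, 10.22, 10.27 and 10.31 in CTCF-B KO, and at 10.28, 10.32, 10.22 and 10.29 in wild type. Both genes of the pair were thus highest in CTCF-A KO, TSR3 by 0.62 and GNPTG by 1.08, and neither was called in CTCF-B KO. RPS2, a protein of the small ribosomal subunit, was at 16.01, 15.83, 15.93 and 15.55 in CTCF-A KO, at 15.18, 15.16, 15.12 and 15.12 in CTCF-B KO, and at 15.21, 15.22, 15.22 and 15.22 in wild type. RPS2 has many processed pseudogenes that may share its reads.

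CARHSP1, which binds and stabilises mRNA, was at 10.19, 10.10, 10.04 and 9.85 in CTCF-A KO, at 9.86, 9.74, 9.85 and 9.72 in CTCF-B KO, and at 10.04, 9.99, 10.02 and 10.02 in wild type. Its CTCF-A KO libraries spanned wild type, with replicate 4 below the wild-type mean and the other 3 above it. RNPS1, a splicing activator, was at 0.57, TBL3, a factor of ribosomal RNA processing, at 0.56, LUC7L, a splicing factor, at 0.32, and SRRM2, a scaffold of nuclear speckles, at 0.24.

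The chromatin, transcription and DNA repair members had the smallest median of the role groups in CTCF-A KO, 0.30, and lay between 0.22 and 0.51. MPG, a glycosylase that removes alkylated bases, was at 10.10, 9.86, 10.04 and 9.67 in CTCF-A KO, at 9.51, 9.48, 9.41 and 9.39 in CTCF-B KO, and at 9.36, 9.38, 9.37 and 9.52 in wild type. CREBBP, a histone acetyltransferase and coactivator, was at 10.95, 10.88, 11.00 and 11.02 in CTCF-A KO, at 10.66, 10.73, 10.72 and 10.64 in CTCF-B KO, and at 10.63, 10.71, 10.68 and 10.63 in wild type. GLYR1, a nucleosome-binding factor, was at 11.23, 11.25, 11.26 and 11.11 in CTCF-A KO, at 11.05, 11.06, 11.04 and 11.03 in CTCF-B KO, and at 10.98, 10.98, 10.99 and 11.02 in wild type. In all 3 the CTCF-A KO libraries lay above wild type, by 0.51, 0.30 and 0.22, and CREBBP was highest in replicate 4. CHTF18, a subunit of a clamp loader, was at 0.30. With the trend removed the median of the 4 was 0.13.

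In CTCF-B KO, which took no part in the choice of the genes, the members' median was near that of all genes, and how many passed the test varied with the fit. That comparison shares the wild-type libraries with the CTCF-A KO one, so each stands on its own values. By limma at an adjusted p under 0.05, 9 members rose and 4 fell, where 18.9% and 20.6% of all genes did. In 17 members all CTCF-B KO libraries lay above all wild-type libraries and in 11 below, patterns that 26.2% and 27.3% of all genes showed. None of the 6 mTORC1 members and none of the 4 chromatin members was called in that fit. After removal of the trend WDR24, TSC2 and PDPK1 of the first group were called higher in CTCF-B KO. So were CHTF18, CREBBP and GLYR1 of the second, in a fit where 29.5% of all genes were called higher.

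Of the members that rose in CTCF-B KO, UNKL rose by 0.36 ± 0.06 (log2, SE, n = 4, limma adjusted p 5.11e-04), TNFRSF12A by 0.36 ± 0.07, MAPK8IP3 by 0.35 ± 0.05 (limma adjusted p 1.21e-04), DNAJA3 by 0.35 ± 0.06, CLCN7 by 0.28 ± 0.05 and PMM2 by 0.26 ± 0.05. ZNF598 rose by 0.23, HMOX2 by 0.20 and TRAP1 by 0.11. Besides METRN, the members that fell were NME3, by 0.26, IL32, by 0.24, and CARHSP1, by 0.22. METRN, UNKL, CLCN7, MAPK8IP3, ZNF598, TNFRSF12A, DNAJA3 and PMM2 were called under each of 20 other settings. CARHSP1 lost its call under 1, NME3, IL32 and HMOX2 under 6 each and TRAP1 under 14. Another 24 members, not called in the reported fit, were called under at least 1 of these settings. The share of all genes that kept a call under every setting was not computed. From the 8 CTCF-B KO and wild-type libraries alone 28 members were called, 18 higher and 10 lower, where 29.2% and 30.1% of all genes were. Without CTCF-A KO replicate 4, 23 were called, 15 higher and 8 lower, where 25.5% and 26.8% of all genes were. The number was 38 with the trend removed, 27 higher and 11 lower, where 29.5% and 25.8% of all genes were called.

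Over the whole table, replicates of a group differed by a median of 0.08 to 0.29 in CTCF-A KO, 0.06 to 0.08 in CTCF-B KO and 0.05 to 0.08 in wild type (absolute log2 difference). In CTCF-A KO 3540 genes were called higher and 3462 lower, and with the library medians set equal 4302 and 2674. Of the markers of astrocytic glioma cells 7 of 8 were in the table. In CTCF-A KO 4 of them were called lower, where 31.1% of all genes were, and 6 with the trend removed, where 30.1% were. In CTCF-B KO all 7 were called lower, where 20.6% of all genes were. Among 4 measured neuron markers, 1 was called higher in CTCF-A KO, where 31.8% of all genes were. With the trend removed 3 were, where 31.7% of all genes were. In CTCF-B KO 2 neuron markers were called higher and 2 lower, where 18.9% and 20.6% of all genes were. No marker of blood cells or oligodendrocytes was in the table, and 1 each of the epithelial list, KRT18, and the endothelial list, KDR, was, both called lower in both knockouts. The part of these markers in the members' values was not tested. In libraries of whole cultures, fewer cells with a transcript and less of it per cell cannot be told apart. Of the 58 members 25 overlap another gene of the annotation, 21 of them on the opposite strand.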

How the data were processed

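The deposited table holds a log2 value per gene and library, normalized by the authors. Per the submitters' processing notes, Trimmomatic 0.33, featureCounts, DESeq2 and the genome build GRCh38.p7 were used. The aligner, the annotation, the strand setting and the exact log2 transformation are not given in the sources used here. The depth of each library is therefore unknown, and no counting interval is given.

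The values were used as deposited, in place of the log2(value + 1) planned for linear values. The filter required a linear value of 10 or more in 4 or more of the 12 libraries. All 12 libraries entered 1 linear model by group, run in limma 3.58.1 under R 4.3.3 (trended empirical Bayes, two-sided, Benjamini-Hochberg adjustment over all 11128 genes, threshold 0.05). On data simulated with independent noise per gene, the fit called 80% of changes of 0.5 and 99% of changes of 1 (absolute log2). A simulated GC trend was the same in every CTCF-A KO library, unlike the measured one. The simulation therefore does not cover a trend that differs between replicates. Differences are of group means, tested against wild type or against CTCF-B KO as named. The SE of a gene pools its spread over the 3 groups and is the same in each comparison.

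The trend with GC content and transcript length was removed per library, by fitting deviations from wild type to natural splines of GC content (5 degrees of freedom) and log2 length (4), with interaction. Both properties could be assigned to 99.7% of genes. Positions are those of GENCODE 29 (GRCh38), in which 11151 of 11178 identifiers were found. Promoters came from RefSeq. A gene's GC content and length are those of its longest transcript, protein-coding ones first.

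The members, role groups and gene lists were chosen with earlier results of these data known. Values in every library are given for the 2 largest and the smallest CTCF-A KO difference of each role group, members called lower there, members with a called difference of at least 0.3 in CTCF-B KO, and members whose CTCF-A KO replicate 4 lay on the other side of the wild-type mean. IL32 was added after its values were seen. Outside the list, the 4 largest called changes per gene list and knockout and the 3 genes on each side of the 10 Mb border are named, apart from 1 gene that is not reported here. Alternatives were other scalings, no filter, no trend in the variance prior, the replicate block, the 8 libraries compared, CTCF-A KO replicate 4 alone, and leaving out each library. Replicate numbers were not taken to pair libraries.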

Additional observations from a re-analysis of the deposited data

Results flagged for a closer look

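HMOX2 was flagged because 1 CTCF-A KO library stood far from the other 3: replicate 4 was at 9.96 (log2), and the others were between 10.24 and 10.28. MPG was flagged in wild type, where replicate 4 was at 9.52 and the others between 9.36 and 9.38. In all, 75 groups of 4 libraries were examined and 2 were flagged by Dixon's test, where chance flags about 1 in 20.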

How the results depend on the processing

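The CTCF-A KO count and median kept their direction under every setting run. Each setting used libraries that chose the genes, so this direction follows from the choice. With the GC and length trend removed the members' median was 0.351 in CTCF-A KO, 0.261 in CTCF-A KO against CTCF-B KO and 0.0786 in CTCF-B KO, where 38 members were called. With CTCF-A KO replicate 4 alone the medians were 0.370 against wild type and 0.349 against CTCF-B KO. No count is given for that fit, as 1 library has no spread of its own. In CTCF-B KO quantile normalization gave a median of 0.0551. Equal library medians gave 8 calls, 7 higher and 1 lower, where 2096 of all 11128 genes were called higher and 1922 lower. Only the 8 libraries compared gave 28 calls, 18 higher and 10 lower, where 29.2% and 30.1% of all genes were. Leaving out 1 library at a time gave 56 to 57 calls and medians of 0.505 to 0.598 in CTCF-A KO. Of all genes, 3306 were called higher and 3180 lower without CTCF-A KO replicate 1, and 4217 and 3993 without replicate 4. In CTCF-B KO there were 9 to 23 calls and medians of 0.00605 to 0.0422. The 9 came without CTCF-B KO replicate 2, where 1711 genes were called higher and 1972 lower. The 23 came without CTCF-A KO replicate 4, where 2839 and 2985 were. Between the knockouts there were 55 to 58 calls and medians of 0.473 to 0.588. There 3574 genes were called higher and 3466 lower without CTCF-A KO replicate 1, and 4267 and 4158 without replicate 4. The causes of these shifts were not tested.

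Some members changed direction. With the trend removed CARHSP1 was at -0.125 and PMM2 at -0.0862 in CTCF-A KO. In CTCF-B KO, RAB11FIP3 was then at 0.133, CAPN15 at 0.104, TBL3 at 0.194, TSC2 at 0.164 and PKD1 at 0.290. With replicate 4 alone CARHSP1 was at -0.167. PKD1 has the longest transcript of the members.

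With the replicate number as a block, 56 members were called in CTCF-A KO, 12 in CTCF-B KO and 55 between the knockouts. Of all genes, 3534 were then called higher and 3526 lower in CTCF-A KO. The numbers were 2109 and 2305 in CTCF-B KO, and 3715 and 3705 between the knockouts. The same block with the trend removed gave medians of 0.351, 0.0786 and 0.261, 37 calls in CTCF-B KO and the same changes of direction. Of all genes, 3283 were then called higher and 2844 lower in CTCF-B KO. Of 12 libraries, 4 correlated best with a library of their own number. Correlations between libraries of the same number ran from -0.32 to 0.43. With such mixed values this check cannot decide whether the numbers pair the libraries.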
